A study of Mus musculus with 4 samples.

Results

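The 10 genes described here were chosen by name as a measure of fibroblast content that is set apart from collagen output: the small leucine-rich proteoglycan genes Dcn, Bgn, Lum, Fmod, Prelp and Ogn, and the fibroblast genes Pdgfra, Thy1, Mmp2 and Mfap5. All 10 had 1 row each among the 18091 rows of the deposited table. They were measured in quadriceps muscle of 5-week-old CD-1 male mice, on 2 arrays of mice labelled Lin28A Tg and 2 arrays of mice labelled WT. Lin28a encodes an RNA-binding protein that blocks maturation of the let-7 microRNAs. The labels name neither the promoter that drives the transgene nor how many animals gave each RNA sample, and a p-value here reflects no more than the spread among these 4 arrays, which may be technical. Each value is a fluorescence intensity from an Illumina bead array.

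Small leucine-rich proteoglycans are secreted proteins built on a curved stack of leucine-rich repeats. They bind collagen fibrils and control how thick and how regular the fibrils become, and several also hold growth factors such as TGF-beta in the matrix. In skeletal muscle they are made mainly by the fibroblasts and fibro-adipogenic cells of the connective tissue layers, which carry the PDGF receptor alpha, and Fmod, Prelp and Ogn are also made in tendon. In whole muscle, fewer cells of a type and less RNA per cell cannot be told apart.

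The members did not move together between the groups. For Bgn and Thy1 the 2 transgenic values exceeded the 2 wild-type values, for Ogn they were lower, and the other 7 overlapped. Of the 7936 genes tested, 21.7% were separate and higher in this way and 16.7% separate and lower. The fold change was positive for 5 members and negative for 5, and ran from 1.27-fold lower (Ogn) to 1.21-fold higher (Bgn). No member passed limma's test at an adjusted p of 0.05, as 0% of all genes did, the smallest adjusted p among the members being 0.531. Ogn was the 1 member under 0.05 before adjustment, where 3.79% of all genes tested did so and were lower, and 5.03% did so and were higher.

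**Figure D1:**
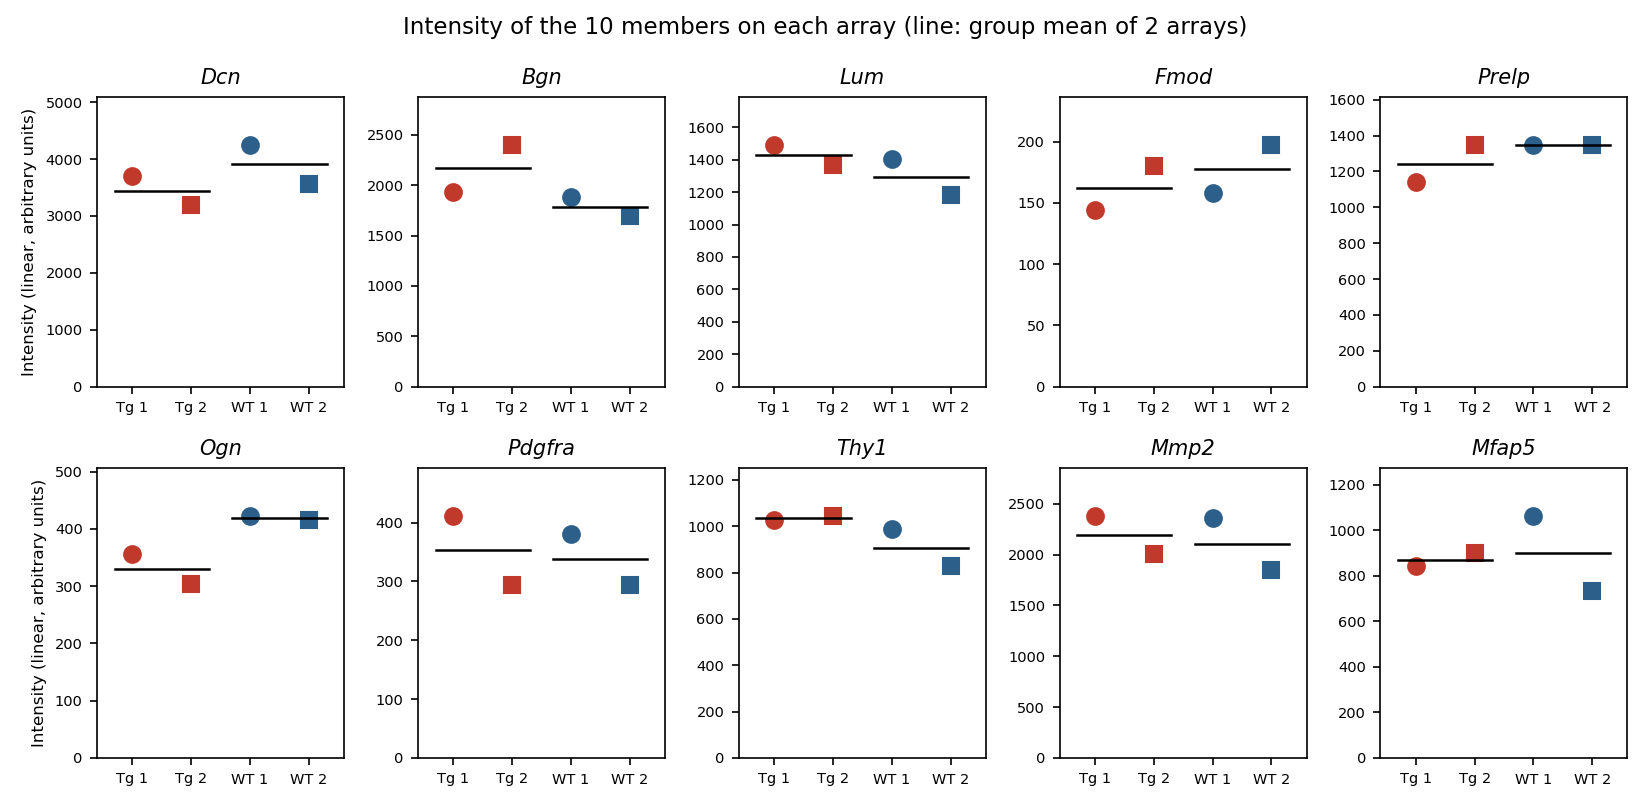
Linear intensity of each of the 10 members (vertical axis from 0, arbitrary units) on the 2 transgenic arrays (Tg, red) and the 2 wild-type arrays (WT, blue), with circles for replicate 1, squares for replicate 2 and a line at each group's mean. Groups are separate for Bgn, Thy1 and Ogn, and for Dcn, Lum, Ogn, Pdgfra and Mmp2 the circles lie above the squares in both groups.

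The promoter sequences of RefSeq covered 5 of the members, and the 250 bases before the start are shown for Bgn and Ogn because these 2 proteoglycan genes differed most between the groups, in opposite directions. Both are read 5′ to 3′ on the plus strand of GRCm38.p6, at chrX:73483351-73483600 and chr13:49607765-49608014. Capitals mark the letters of the TATA box TATAAA and of the GC box GGGCGG, searched on both strands.
Bgn: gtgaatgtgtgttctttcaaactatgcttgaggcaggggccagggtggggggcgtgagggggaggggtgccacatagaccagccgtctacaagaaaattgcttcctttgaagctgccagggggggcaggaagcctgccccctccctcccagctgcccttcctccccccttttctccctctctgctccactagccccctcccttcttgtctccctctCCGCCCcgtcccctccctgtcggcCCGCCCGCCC
Ogn: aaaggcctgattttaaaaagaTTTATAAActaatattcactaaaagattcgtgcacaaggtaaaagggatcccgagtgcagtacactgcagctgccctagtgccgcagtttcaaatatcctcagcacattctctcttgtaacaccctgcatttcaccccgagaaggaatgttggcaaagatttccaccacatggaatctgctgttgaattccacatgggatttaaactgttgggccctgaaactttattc
The Bgn window held 3 GC box matches and no TATA box, and was 64.4% G and C. The Ogn window held no GC box and 2 overlapping TATA box matches, 1 on each strand, and was 42.0% G and C. Of 32851 promoter windows of this length, 32.7% held the GC box and 12.4% the TATA box. These matches describe the letters and are not evidence of binding.

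Decorin and biglycan are the closest relatives in the family, both carrying chondroitin or dermatan sulfate chains, and their genes had opposite directions here. Dcn, whose protein coats collagen fibrils and binds TGF-beta, read 3699 and 3190 on the transgenic arrays and 4249 and 3569 on the wild-type arrays. The highest value was that of wild-type replicate 1, and the groups overlapped. The log2 fold change was -0.18 (SE 0.13; limma adjusted p = 0.770), with a 95% interval from -0.52 to 0.16. It was -0.06 when wild-type replicate 1 was left out, -0.07 when transgenic replicate 2 was, and -0.31 when wild-type replicate 2 was. Bgn, whose protein also binds collagen and can act on Toll-like receptors when released, read 1932 and 2400 in transgenic and 1882 and 1690 in wild-type muscle. Transgenic replicate 2 was the brightest, while transgenic replicate 1 lay just above wild-type replicate 1. Its log2 fold change was 0.27 (SE 0.13; limma adjusted p = 0.671), with a 95% interval from -0.08 to 0.63. It was 0.12 without transgenic replicate 2 and 0.43 without transgenic replicate 1.

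The difference between the 2 genes was followed on each array, as log2 Dcn minus log2 Bgn relative to its mean over the 4 arrays. It was 0.04 and -0.49 in transgenic and 0.28 and 0.18 in wild-type muscle, so the groups did not overlap. Of the 45 pairs of members, 15 were separate in this way, and the pair was singled out after its values were seen.

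Lumican, fibromodulin and PRELP form the class of the family whose protein cores can carry keratan sulfate or bind heparan sulfate. Lum, which regulates fibril spacing, read 1492 and 1368 in transgenic and 1405 and 1182 in wild-type muscle. Wild-type replicate 2 was the lowest and the other 3 arrays lay close together, so the groups overlapped. Lum had a log2 fold change of 0.15 (SE 0.11; limma adjusted p = 0.784), or 0.02 without wild-type replicate 2. Fmod, which competes with lumican for collagen and is abundant in tendon, was the dimmest member, at 144 and 180 in transgenic and 158 and 197 in wild-type muscle. Both replicate 2 arrays lay above both replicate 1 arrays, whatever the group. For Fmod the log2 fold change was -0.13 (SE 0.17; limma adjusted p = 0.882) and turned to 0.03 when either transgenic replicate 1 or wild-type replicate 2 was left out. Background was not subtracted, which understates folds at this level: with normexp correction at an offset of 16 the value was -0.21.

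Prelp, whose protein links basement membranes to the fibrillar matrix, read 1139 and 1345 in transgenic and 1345 and 1348 in wild-type muscle. Transgenic replicate 1 was low and the other 3 arrays were nearly equal. Prelp had a log2 fold change of -0.12 (SE 0.10; limma adjusted p = 0.805), and -0.002 without transgenic replicate 1. In the RefSeq gene table Prelp and Fmod are neighbours with no protein-coding gene between them, as are Dcn and Lum. The replicate 1 arrays were below the replicate 2 arrays in both groups for Fmod and Prelp and above them for Dcn and Lum.

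Ogn, the gene of osteoglycin, a small member of the family that also affects collagen fibril diameter, had the largest difference of the 10. It read 356 and 305 in transgenic muscle and 422 and 415 in wild-type muscle. Both transgenic arrays were below both wild-type arrays, and the wild-type arrays were nearly equal. The mean was 330.2 ± 36.2 against 418.9 ± 4.88 (SD, n = 2 each), a log2 fold change of -0.35 (SE 0.09; limma adjusted p = 0.531). The value ran from -0.46 to -0.24 with 1 array left out and from -0.42 to -0.33 under the others of the 12 alternatives run for it. Because the groups were separate, leaving out 1 array could not turn the direction. A change of filter or a block leaves the fold change as it is, so the unchanged direction adds little.

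Of the 12 other proteoglycans of the family that were looked up, 9 did not reach the background criterion, among them Aspn and Omd, which with Ogn are 3 consecutive genes in the RefSeq gene table, Omd lying between the others. Aspn read 80.2 to 91.8 and Omd 86.3 to 88.8 over the 4 arrays, against a background threshold of 90.0, the level that a gene had to exceed on at least 2 arrays to be tested. The 3 that were tested were Podn (log2 fold change -0.08, SE 0.05), Chad (-0.31, SE 0.33) and Kera (0.04, SE 0.07), and none passed.

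**Figure D2:**
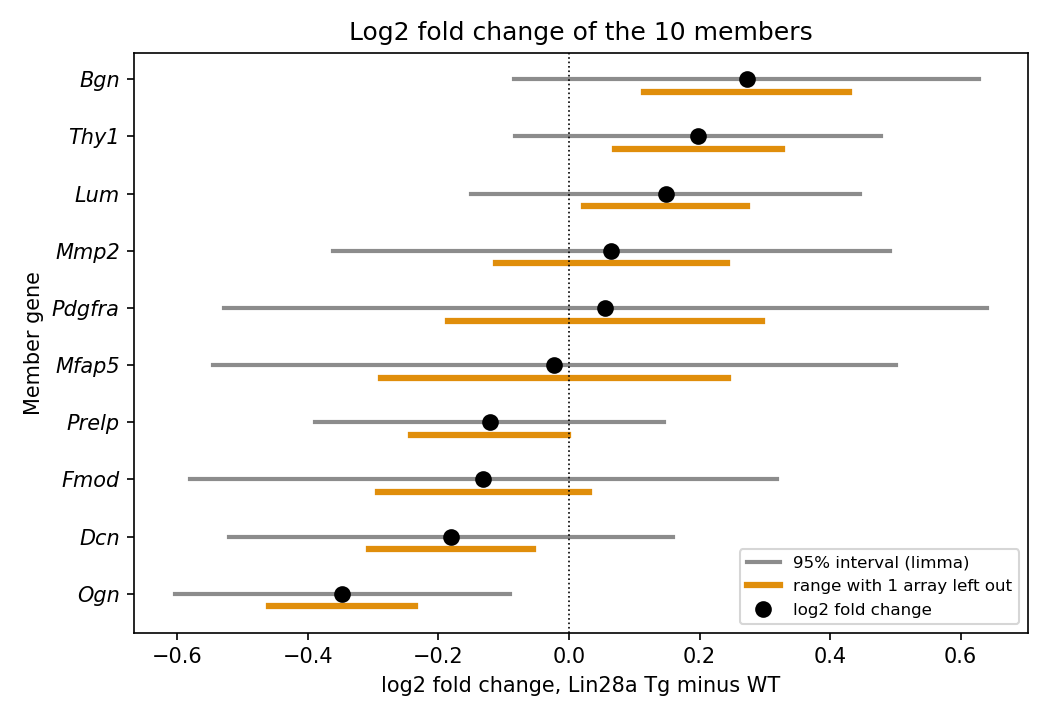
Log2 fold change of each member, Lin28a Tg minus WT (black points), with the 95% interval of the limma fit (grey) and the range of the value when 1 of the 4 arrays is left out (orange). The grey interval of Ogn lies below 0, at -0.60 to -0.09, before any adjustment for the 7936 genes tested, and those of the other 9 members include 0.

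Of the 4 fibroblast genes outside the family, Thy1 was separate between the groups, and Pdgfra, Mmp2 and Mfap5 had differences smaller than their standard errors. Pdgfra encodes the receptor tyrosine kinase that marks the fibro-adipogenic cells of muscle. It read 411 and 294 in transgenic and 381 and 294 in wild-type muscle, so that the replicates within each group differed far more than the group means. The log2 difference between replicates 1 and 2 was 0.48 in transgenic and 0.37 in wild-type muscle, against a log2 fold change of 0.06 between the groups (SE 0.22; limma adjusted p = 0.976). The 95% interval of that fold change ran from -0.53 to 0.64. Leaving out transgenic replicate 1 turned it to -0.18, and leaving out wild-type replicate 2 to -0.13.

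Thy1, a surface glycoprotein of fibroblasts that mouse T cells and neurons also carry, read 1029 and 1044 in transgenic and 987 and 826 in wild-type muscle. The groups did not overlap, and wild-type replicate 2 was lowest. For Thy1 the log2 fold change was 0.20 (SE 0.10; limma adjusted p = 0.706), and 0.07 without wild-type replicate 2. Of 8 T cell markers 7 did not reach the background criterion, including Cd3e, Cd3d and Cd3g. Of 9 nerve and Schwann cell markers measured, 5 did not reach it, and the 4 tested had summed intensities of 466 and 511 in transgenic and 439 and 547 in wild-type muscle.

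Mmp2, the gelatinase that fibroblasts secrete as a proenzyme, read 2379 and 2004 in transgenic and 2359 and 1847 in wild-type muscle. As for Pdgfra, both replicate 1 arrays were high and both replicate 2 arrays low. Mmp2 had a log2 fold change of 0.06 (SE 0.16; limma adjusted p = 0.962). It turned to -0.06 when transgenic replicate 1 was left out, and to -0.11 when wild-type replicate 2 was. Mfap5, a glycoprotein of the fibrillin microfibrils and a marker of adventitial fibroblasts, read 841 and 900 in transgenic and 1062 and 735 in wild-type muscle. The 2 wild-type arrays were the highest and the lowest of the 4. For Mfap5 the log2 fold change was -0.02 (SE 0.19; limma adjusted p = 0.988). Wild-type replicate 1 decided its sign, the value being 0.24 without that array, and leaving out transgenic replicate 1 gave 0.03. With wild-type replicate 2 left out it was -0.29.

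The members varied more between arrays than most genes. The distance from the lowest to the highest array had a median of 0.43 on the log2 scale over the 10 members, 0.19 over all genes tested and 0.30 over the 2841 genes at least as bright as Fmod. Their median absolute log2 fold change was 0.14 against 0.07 for all genes tested. Replicate 1 was above replicate 2 in both groups for Dcn, Lum, Ogn, Pdgfra and Mmp2, 5 of 10 members, as it was for 25.1% of all genes tested. It was below in both groups for Fmod and Prelp, as for 26.2% of all genes tested. In wild-type muscle this difference was small for Ogn (0.02) and for Prelp (-0.003). The labels do not say that a replicate number marks a shared litter, day or array.

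**Figure D3:**
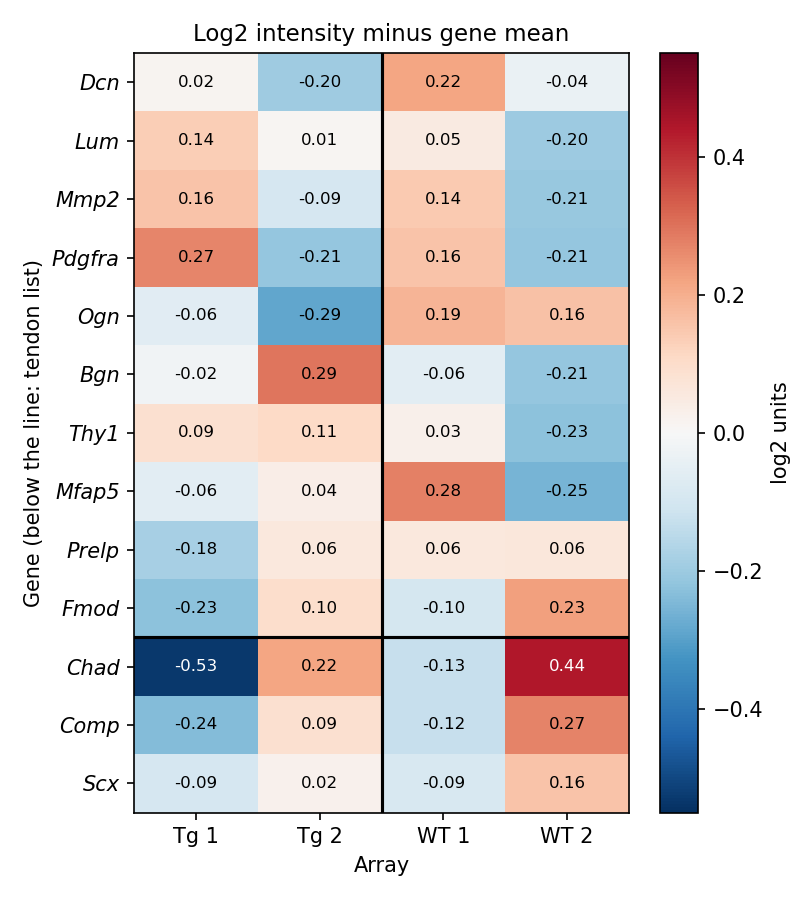
Log2 intensity minus the gene's mean over the 4 arrays, with arrays in columns and genes in rows, the members above the horizontal line and 3 genes of the tendon list below it. Colour and printed value give the deviation in log2 units (red above, blue below): Fmod, Prelp, Chad, Comp and Scx are each lower on replicate 1 than on replicate 2 in both groups, Prelp by only -0.003 in wild type.

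Chad, Comp and Scx, 3 of the 8 tested tendon markers, had the same order of arrays as Fmod, and are named here because of it. Chad, a leucine-rich cartilage and tendon protein gene, read 127 and 213 in transgenic and 168 and 249 in wild-type muscle. Comp, a fibril-binding protein gene of cartilage and tendon, read 108 and 136 against 117 and 155, and Scx, the tendon transcription factor gene, 116 and 125 against 116 and 138. In all, 6 of the 8 tested tendon genes were lower on replicate 1 in both groups and 0 were higher in both. Tnmd, a defining tendon marker, read 82.5 to 86.5 and was below the threshold on all 4 arrays. The summed intensity of the 8 genes was 4755 and 4041 in transgenic and 1322 and 2174 in wild-type muscle. Most of it came from Egr1, except on wild-type replicate 1. Egr1 is also an immediate-early gene, and read 4019 and 3172 against 553 and 1233. The part of tendon in the values of Fmod and Prelp was not tested.

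Wild-type replicate 1 stood apart from the other arrays in genes of liver. Of 12 hepatocyte markers 5 reached the criterion of 2 arrays, and their summed intensity was 9401 on that array, 593 on wild-type replicate 2 and 594 and 726 on the transgenic arrays. Their log2 fold changes ran from -2.47 to -1.36, and none passed. Apoa2, an apolipoprotein gene left untested because it exceeded the threshold on that array alone, read 5506 there and 84.9 to 89.9 on the others. Alb was below the threshold on all 4 arrays. Dcn, Ogn and Mfap5 were highest on the same array, and with it left out their log2 fold changes were -0.06, -0.34 and 0.24. Pi16, a gene of adventitial fibroblasts, was also highest there, at 838 against 324 and 408 in transgenic muscle and 388 on wild-type replicate 2, while Cd34 and Ly6a were highest on transgenic replicate 1. Whether these readings share a source was not tested. The tissue label was otherwise met by muscle genes, with Ckm, the muscle creatine kinase gene, at 19190 to 21791. Lin28a itself was below the threshold on all 4 arrays, at 86.4 and 88.0 in transgenic and 82.9 and 82.6 in wild-type muscle, so the transgene is not checked by this row. Array correlations of log2 intensity over the tested genes ran from 0.976 to 0.990.

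A further list of 20 fibroblast genes gave no shared direction either. Of 16 tested, 8 had a positive and 8 a negative log2 fold change, 5 were separate and higher in transgenic muscle, 3 separate and lower, and the median was -0.004 against 0.01 for all genes tested. The progenitor genes Cd34 and Ly6a were at 0.16 (SE 0.11) and 0.20 (SE 0.06), and Fap, a surface protease gene of activated fibroblasts, at 0.02 (SE 0.08). Gsn, the actin-severing gelsolin gene, was at -0.74 (SE 0.07) and Pi16 at -0.65 (SE 0.40). None passed, the smallest limma adjusted p being 0.478.

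The collagen genes, which include those of the fibrils these proteoglycans bind, were set beside the members. Of 14 collagen genes tested, 13 had a positive log2 fold change, 7 were separate and higher in transgenic muscle and 0 separate and lower, with a median of 0.26. Over all genes tested, 53.4% were positive, 21.7% separate and higher and 16.7% separate and lower, and the counts of the other lists are read against the same shares. The same median was -0.13 over the 6 proteoglycan members and 0.06 over the other 4 members, with Bgn and Thy1 the members that were separate and higher. Col1a1 and Col5a1, chains of fibrils of types I and V, were at 0.80 (SE 0.10) and 0.95 (SE 0.10), and Col3a1 at 0.40 (SE 0.14). Col1a2 was at 0.05 (SE 0.10) and Col5a2 at 0.00 (SE 0.06), both close to background, with Col5a2 at 89.8 to 93.8. No collagen passed (smallest limma adjusted p = 0.482). The median of the collagens was 0.06 without wild-type replicate 2. That of the proteoglycans was 0.01 without transgenic replicate 1, and that of the other 4 members was -0.12 without wild-type replicate 2. Leaving out transgenic replicate 1 turned the latter to -0.02. Of 13 enzymes and chaperones of collagen processing 11 had positive values, with a median of 0.15. Lox, which cross-links collagen, was at 0.47 (SE 0.08), Loxl1 at 0.43 (SE 0.18) and the lysyl hydroxylase gene Plod1 at 0.11 (SE 0.06).

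**Figure D4:**
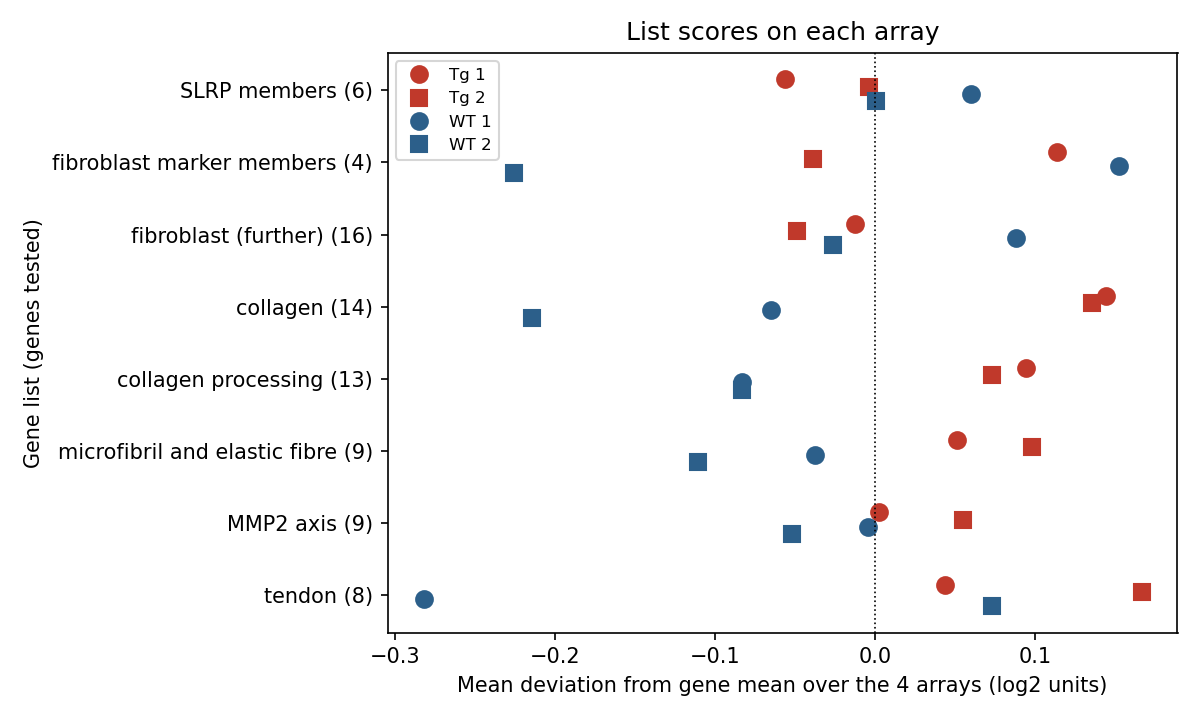
Score of 8 gene lists on each array, the mean over the list's tested genes of log2 intensity minus the gene's mean over the 4 arrays (horizontal axis, log2 units; red transgenic, blue wild type; circles replicate 1, squares replicate 2; number of genes tested in brackets). Both transgenic arrays lie right of both wild-type arrays for collagen (0.14 and 0.14 against -0.07 and -0.21), collagen processing and the microfibril list. The MMP2 list is separate in the same direction but only narrowly, at 0.002 and 0.05 against -0.005 and -0.05. It includes Mmp3, near background and tested because of its transgenic arrays alone, so this separation is not read as a difference. The fibroblast marker members and the further fibroblast list overlap, and the proteoglycan members lie slightly to the left.

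The scores on each array show the same contrast in another form. The proteoglycan score was -0.06 and 0.00 on the transgenic arrays and 0.06 and 0.00 on the wild-type arrays, where the 2 values near 0 were -0.004 in transgenic and 0.0006 in wild-type muscle. The score of the other 4 members was 0.11 and -0.04 in transgenic and 0.15 and -0.23 in wild-type muscle, with the lowest value on wild-type replicate 2, which was also lowest for collagen.

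Genes of proteins that activate or inhibit Mmp2 were followed as a list. Mmp14, the membrane protease that activates the Mmp2 proenzyme, read 587 and 544 in transgenic and 381 and 294 in wild-type muscle. The groups did not overlap, at a log2 fold change of 0.75 (SE 0.14; limma adjusted p = 0.482). Timp2, which takes part in that activation and also inhibits the enzyme, was at -0.10 (SE 0.09) and Timp1 at 0.42 (SE 0.16). The inhibitor genes Timp3 and Timp4 were separate and lower, at -0.42 (SE 0.08) and -0.39 (SE 0.12). Timp3 read 251 and 279 in transgenic and 361 and 346 in wild-type muscle. Of the 9 genes of this list that were tested, none passed, 3 were separate and higher and 2 separate and lower, and the median was 0.05. Mmp3, counted among the 3, read 92.2 and 90.9 in transgenic and 87.9 and 86.4 in wild-type muscle. Only its transgenic values exceeded the background threshold, and narrowly, so its difference is one near background.

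Microfibril and elastic fibre genes, the partners of Mfap5, had a median of 0.21 over 9 tested genes, 4 of them separate and higher. Eln, the elastin gene, was at 0.44 (SE 0.14), the fibrillin gene Fbn1 at 0.38 (SE 0.18), Mfap2 at 0.21 (SE 0.09) and Mfap4 at 0.25 (SE 0.17). Fbn1 read 1111 and 1105 in transgenic and 1011 and 717 in wild-type muscle, with wild-type replicate 2 lowest, as for Mfap5. None passed.

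Among the ligands and receptors around Pdgfra, the growth factor genes Pdgfa, Pdgfb and Pdgfc were at 0.00 (SE 0.16), 0.18 (SE 0.11) and -0.09 (SE 0.06), over 5 tested genes with a median of 0.00. Pdgfc read 85.9 and 84.8 in transgenic and 91.8 and 90.5 in wild-type muscle. It was tested because of the wild-type arrays alone, which lay just above the background threshold, so its difference is one near background. Of 10 tested genes of the TGF-beta axis, on which decorin and biglycan act, 7 were positive and 3 negative, with a median of 0.04. The ligand genes Tgfb1, Tgfb2 and Tgfb3 were at -0.01 (SE 0.07), 0.06 (SE 0.06) and 0.05 (SE 0.19), and the receptor genes Tgfbr1 and Tgfbr2 at 0.35 (SE 0.12) and -0.05 (SE 0.08). Of the receptors that decorin or biglycan can engage, Tlr2 was at 0.21 (SE 0.11), its co-receptor Cd14 at -0.02 (SE 0.10) and Egfr at 0.15 (SE 0.11). Of 23 measured genes of glycosaminoglycan chain synthesis, 14 did not reach the background criterion, and the 9 tested had a median of 0.02. Xylt1 and Xylt2, which start the chain on the core protein, were at 0.16 (SE 0.06) and 0.08 (SE 0.08), and B4galt7, which adds the next sugar, at 0.09 (SE 0.06). Xylt1 read 91.8 and 90.6 in transgenic and 79.7 and 83.2 in wild-type muscle. Only its transgenic values exceeded the background threshold, and narrowly, so the size of its difference is uncertain. None of these lists had a member that passed.

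Other cell types were followed by their marker lists. Summed intensities were 1748 and 1742 in transgenic and 1577 and 1879 in wild-type muscle for 10 endothelial genes, 5133 and 4991 against 4615 and 4892 for 8 smooth muscle and pericyte genes, and 2950 and 3253 against 2621 and 2911 for 10 macrophage genes. For 8 adipocyte genes the sums were 13694 and 16374 against 16504 and 14701. The medians of the log2 fold changes were -0.01, 0.06, 0.03 and -0.10, in the same order. By their sums the smooth muscle and macrophage lists were separate and higher in transgenic muscle, but the smooth muscle score, which weights its genes equally, overlapped (0.14 and -0.18 against -0.01 and 0.05). Des, which muscle fibres also express, made up most of that sum, at 3038 and 3535 against 2971 and 3241. The sums were also separate and higher for 4 satellite cell genes (614 and 639 against 567 and 588). Pax7 and Myf5, also on that list, did not reach the background criterion. Of the 4 tested, Itga7 (0.36), Vcam1 (0.25) and Myod1 (0.10) were separate and higher, while Chodl (-0.22) was negative and overlapped. The endothelial and adipocyte sums overlapped. The sums of 5 erythroid genes, 27515 and 34715 against 34543 and 23056, overlapped as well. The part of these cells in the members' values was not tested.

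The genes whose pattern over the 4 arrays was nearest to 3 of the proteoglycans were listed by the root mean square difference of log2 values centred on each gene's mean. Nearest to Dcn were 2 rows named only by a locus number, LOC100048187 (0.0079) and LOC100044692 (0.011), then Kpna1, a nuclear import gene (0.019). Nearest to Lum were Denn2b (0.0093), Copz2 (0.012) and Cstf2 (0.018), and nearest to Bgn Capns1 (0.030), Nifk (0.033) and Cd63 (0.035). With 4 arrays such matches are common: within 0.05 there were 33 genes for Dcn, 89 for Lum and 10 for Bgn.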

How the data were processed

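Biotin-labelled cRNA was hybridised to Illumina Ref-8 bead arrays, per the labels' protocols. The authors deposited an intensity on the linear scale for each gene symbol and array. The values show that they were normalized between arrays, values of equal rank differing by a median of 0.0917%, and that background was kept (lowest value 72.8). No source used here names the software. The 8 value columns of another deposited table match no sample label and were left out.

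Symbols were updated through RefSeq (14090 rows current, 3066 matched by an older name, 50 with several matches, 885 with none), and the brightest row per symbol was kept, leaving 17904 genes. The background level, the most common intensity, was 84.7, and the spread of values below it gave an SD of 0.052 (log2). Genes above 90.0 (mode plus 1.645 SD) on at least 2 of 4 arrays, 7936 in all, were fitted on log2 intensity across all genes with lmFit and eBayes of limma 3.58.1 (R 4.3.3), with Benjamini-Hochberg adjustment. The fit was tested on simulated data. The arrays' number limits precision. "Separate" means that both transgenic arrays lay on 1 side of both wild-type arrays.

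The members and lists were chosen with earlier results of these data known. Named genes are the members, Lin28a, the first 3 tested genes of each list in its written order (up to 2 more where a list is set beside the members) and the nearest 3 patterns of Dcn, Lum and Bgn. Mmp3 and the individual genes of the T cell, nerve, hepatocyte, tendon and other cell lists named besides were chosen after their values were seen. The alternatives tried were adding 16 before taking log2, dropping or tightening the filter (94.5 on all 4 arrays), eBayes with trend and robust options, a block for replicate number, normexp at offsets of 16 and 50, median centring, an adjusted p under 0.10 and omission of each array.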

Additional observations from a re-analysis of the deposited data

How the results depend on the processing

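No member passed an adjusted p of 0.05 under the 12 alternatives run for each, the smallest being 0.490, and of those 120 values 112 kept their direction. That count overstates stability, since a change of filter or a block leaves a member's fold change as it is. For the separate members Bgn, Thy1 and Ogn, leaving out 1 array could not turn the direction either. With the trend and robust options of eBayes, run for counts only, no gene passed (smallest adjusted p 0.0697, 602 genes unadjusted). The 8 that turned came from leaving out 1 array: Fmod ranged from -0.29 to 0.031, Pdgfra from -0.18 to 0.30, Mmp2 from -0.11 to 0.24 and Mfap5 from -0.29 to 0.24 on the log2 scale. The median of the proteoglycan members ranged from -0.15 to 0.015 with 1 array left out, and was -0.16 with normexp at an offset of 16. Over the same omissions of 1 array, the median of the other 4 members ranged from -0.12 to 0.24 and that of the collagens from 0.061 to 0.37. Over all genes, 0 passed an adjusted p of 0.05 with limma and 700 had an unadjusted p under 0.05. The second count was 1156 with no filter, where more genes are tested. With 1 array left out, 381 to 676 genes had an unadjusted p under 0.05 and 0 to 19 passed, the 19 without wild-type replicate 2, none of them a member. A lone array is then assumed to vary like the other group. The cause was not tested.

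With the replicate number as a block (replicate block), 0 genes passed and 666 had an unadjusted p under 0.05. The deviations of same-numbered arrays correlated at 0.036 over all genes, too little to treat the numbers as pairs, and whether same-numbered arrays share a litter, day or slide was not tested. The block changed no call. Crossed pairing, added after the data were seen, gave 609 genes. Every member has 1 row, so the planned choice among rows was not run. Array signal limits Fmod most, whose value was -0.21 with normexp at an offset of 16.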
